A study of Mus musculus with 9 samples.

Results

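The small heat shock proteins and their co-chaperone Bag3 are described here across lentiviral delivery of p21 and p16. The 7 genes are Hspb1, Hspb2, Hspb6, Hspb7, Hspb8, Cryab and Bag3, of 24062 gene symbols counted, and all 7 were among the 14223 symbols tested. They were chosen by family membership and because Hspb1 and Cryab had been seen to be higher with both inhibitors than with the empty vector in these same libraries. The levels against the empty vector are therefore a description, with no test, and the comparison of p21 with p16 is the one that was tested. RNA-seq was done on mouse embryonic fibroblasts of the C57BL/6 strain, connective tissue cells grown from embryos. On day 4 after infection with a lentivirus, 3 libraries each were made from an empty vector (EV) group, a group given p21 (Cdkn1a) and a group given p16 (Cdkn2a), both inhibitors of cyclin-dependent kinases. All 3 groups are labelled non-senescent and all carry a lentiviral vector. The promoter in the vector, pooling and the separation of cultures are not given in the sources used here. The p16 libraries carry sample numbers apart from those of the EV and p21 libraries. The labels do not say whether all 9 libraries were prepared and sequenced together. If they were not, that cannot be told apart from p16 in comparisons of p16 with EV or p21.

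Small heat shock proteins are ATP-independent chaperones that hold partly unfolded proteins in solution until the ATP-driven HSP70 machinery can refold them or pass them on for degradation. They share a conserved alpha-crystallin domain, assemble into oligomers, and several bind actin and intermediate filaments. BAG3 ties them to HSP70 and, with HSPB8 and the ubiquitin ligase CHIP, sends damaged filament proteins such as filamin to autophagy, a route known from muscle as chaperone-assisted selective autophagy. Stress raises many of these genes through the factor HSF1, and in unstressed animals several of them are best known from heart, skeletal and smooth muscle.

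The libraries held 44455730 to 63152239 counts. Levels are given as CPM, the usual depth-scaled read count, after scaling between libraries by the TMM method. Cdkn1a stood at 1605 CPM on average with p21 against 360.2 CPM with EV, and Cdkn2a at 1731 CPM with p16 against 37.9 CPM, so the libraries carry the genes their labels name. The replicate 3 libraries of all groups stood apart by Xist, the X-inactivation transcript (181 to 251 CPM, at most 6.96 CPM in the other libraries), and calls of the 7 genes that differ without them are given with those genes. The sum of 10 listed fibroblast markers was 26983 to 33420 CPM over all libraries, most of it Col1a1 and Col1a2. With p21, 4 of the 10 rose and 2 fell, Pdgfra from 33.5 to 16.8 CPM and Col3a1 from 1756 to 1403 CPM on average. With p16 1 rose and 0 fell (1 was lower at an unadjusted p under 0.05, and 0 with DESeq2). Over all tested genes 19.8% rose and 20.1% fell with p21, and 5.8% and 5.56% with p16. The number that fell with p21 is thus near the share over all genes. The part of these markers in the results was not tested. Bulk RNA cannot tell more cells of a type from more RNA per cell.

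The members lie on 4 chromosomes of GRCm38 (the build mm10), with positions from GENCODE M21. Hspb1 is on chromosome 5 (135887919 to 135889563, plus strand) and Hspb8 on the same chromosome (116408491 to 116422864, minus strand). Hspb6 (30552178 to 30555443) and Bag3 (128523616 to 128546981) are on the plus strand of chromosome 7, and Hspb7 is on the plus strand of chromosome 4 (141420779 to 141425311). Cryab (50751325 to 50756636, plus strand) and Hspb2 (50751078 to 50752354, minus strand) are neighbours on chromosome 9. Their annotated gene bodies overlap by 1030 bases, in which 30.2% of the exon bases of Hspb2 and 17.0% of those of Cryab are shared. Strand is not preserved by the kit used for these libraries, so reads from that stretch could belong to either gene. Exons of Hspb6 overlap other annotated genes for 3.3% of their bases on its own strand and 5.4% on the other, and the remaining 4 members overlap none.

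Promoter windows from RefSeq (GRCm38.p6, 250 bases before to 50 after each gene start) matched 5 members with 6 windows, 2 of them for Hspb6; the members without a window are Hspb2 and Cryab. They were searched for the paired inverted repeats that HSF1 recognises, written GAANNTTC and TTCNNGAA, each of which reads the same on both strands. GAANNTTC was present in 4 of the 6 windows, those of Hspb1, Hspb8 and Bag3 and 1 of Hspb6, while 7.86% of all 32851 windows hold it. The same 8 letters, GAAGTTTC, occurred in all 4, and 1.21% of all windows hold them on either strand, a form that was looked up after the matches were seen. TTCNNGAA was in none of the 6 (8.52% of all windows), nor were 3 alternating repeats starting with GAA (0.31%) or TTC (0.32%) or the CArG box bound by SRF (1.63%). The windows of Hspb7 and the first of Hspb6 held no match to any of these. Both windows of Hspb6 lie inside its GENCODE gene body (30552178 to 30555443). The Hspb6 match is in the second (30553051 to 30553350), and its distance is counted from the RefSeq start of that window. It is therefore not upstream of the gene as positioned above. The Bag3 match is also counted from the RefSeq start of its window (128523333 to 128523632). That start lies before the GENCODE start of 128523616, from which the Bag3 match is at a lower base number. The 30 bases around each match are shown because 4 members share the same core, which stands in capitals.
Hspb1, chr5:135887791-135887820, plus strand, match 117 bases before the start: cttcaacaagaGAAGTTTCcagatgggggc
Hspb6, chr7:30553170-30553199, plus strand, match 120 bases before the start: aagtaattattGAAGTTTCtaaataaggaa
Hspb8, chr5:116422844-116422873, minus strand, match at base 3 of the transcript: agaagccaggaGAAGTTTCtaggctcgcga
Bag3, chr7:128523603-128523632, plus strand, match at base 43 of the transcript: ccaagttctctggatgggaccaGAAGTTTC
In Hspb1 a second match, GAACCTTC, lies 97 bases before the start. The 250 bases upstream of Hspb1, chr5:135887669-135887918, are shown with both matches in capitals, since this was the most abundant member.
Hspb1 upstream: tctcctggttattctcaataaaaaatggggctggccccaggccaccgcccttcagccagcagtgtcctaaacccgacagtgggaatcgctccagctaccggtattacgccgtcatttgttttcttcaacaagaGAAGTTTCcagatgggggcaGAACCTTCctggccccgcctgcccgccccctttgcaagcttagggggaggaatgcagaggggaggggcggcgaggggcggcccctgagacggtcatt
A match of letters is not a measured binding site, and no binding was measured in this study.

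Hspb1 encodes the most widely expressed small heat shock protein, a binder of actin and intermediate filaments that is phosphorylated by the kinase MK2 downstream of p38. The EV libraries held Hspb1 at 173, 178 and 183 CPM. With p21 it stood at 279, 268 and 269 CPM, and with p16 at 270.0, 264 and 279 CPM. Every library with an inhibitor lay above every EV library, and the p21 and p16 libraries overlapped almost completely. Over all tested genes, the groups did not overlap, in either direction, for 49.1% in p21 against EV and 32.7% in p16 against EV. In p21 against p16 the share was 31.2%. The separations given for this and the other members are set beside these shares. The log2 fold change was 0.61 ± 0.034 (SE) with p21 and 0.61 ± 0.034 with p16, a 1.53-fold and a 1.52-fold difference. Both comparisons share the EV libraries. The replicates were tight, with a coefficient of variation of 2.19% to 2.79% within the groups.

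Cryab, which encodes alphaB-crystallin, a chaperone of the lens, heart and muscle that binds desmin, differed more between the inhibitors. Its level was 69.1, 72.5 and 63.6 CPM with EV, 101, 99.8 and 93.5 CPM with p16, and 141, 132 and 117 CPM with p21. The 3 groups formed steps without overlap, EV below p16 below p21. Groups without overlap are common here, at 31.2% to 49.1% of all tested genes depending on the comparison. The log2 fold change against EV was 0.93 ± 0.068 with p21 and 0.52 ± 0.068 with p16. In each group the replicate 3 library was the lowest. The log2 CPM difference Cryab minus Hspb1 was -1.38 ± 0.12 (SD, n = 3) with EV, -1.47 ± 0.10 with p16 and -1.07 ± 0.12 with p21. The p21 libraries (-1.20 to -0.98) lay above all others (-1.58 to -1.30).

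Hspb8 and Bag3 encode partners in a single complex with HSP70. Hspb8 was at 60.2, 60.8 and 56.9 CPM with EV, 68.9, 65.8 and 63.1 CPM with p16, and 72.6, 65.8 and 68.8 CPM with p21. Its EV libraries lay below all others by a small margin, and those of p16 and p21 overlapped. The log2 fold change against EV was 0.22 ± 0.051 with p21 and 0.15 ± 0.051 with p16. Bag3 was at 97.3, 105 and 106 CPM with EV, 118, 117 and 120 CPM with p16, and 130.4, 132 and 131 CPM with p21. As for Cryab the groups formed steps without overlap, but the steps were lower, at 0.36 ± 0.038 with p21 and 0.20 ± 0.038 with p16. The log2 CPM difference Hspb8 minus Bag3 was -0.79 ± 0.10 (SD, n = 3) with EV, -0.84 ± 0.08 with p16 and -0.93 ± 0.08 with p21. The groups overlapped, from -0.89 to -0.69 with EV and from -1.01 to -0.85 with p21.

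Hspb7 and Hspb6 encode members best known from heart and other muscle, where HSPB7 binds filamin C and sarcomeric actin and HSPB6 is a target of the kinases PKA and PKG. Hspb7 was scarce, with 143 to 342 reads a library, at 3.07, 3.50 and 3.05 CPM with EV, 4.84, 4.02 and 4.79 CPM with p16, and 5.76, 6.81 and 6.36 CPM with p21. It showed the same order of groups as Cryab, without overlap, and its log2 fold change with p21, 0.97 ± 0.12, was the highest estimate of the 7 members (0.50 ± 0.12 with p16). Hspb6 was at 42.7, 41.5 and 36.2 CPM with EV, 44.4, 44.6 and 36.1 CPM with p16, and 49.9, 56.4 and 35.0 CPM with p21. Here the replicate 3 library was the lowest of each group, and the groups overlapped. The log2 fold change was 0.23 ± 0.14 with p21 and 0.06 ± 0.14 with p16. In replicates 1 and 2 alone it was 0.33 with p21, past the edgeR threshold, and 0.08 with p16, and without p21 replicate 3 it was 0.40 with p21, also past it.

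Hspb2, the neighbour of Cryab and known from heart and skeletal muscle, had 14 to 38 reads a library. It stood at 0.578, 0.532 and 0.299 CPM with EV, 0.624, 0.445 and 0.652 CPM with p16, and 0.640, 0.567 and 0.437 CPM with p21. The groups overlapped, and a log2 fold change of 0.21 ± 0.33 with p21 and 0.26 ± 0.32 with p16 was within its error, so no difference was detectable at this depth. The log2 CPM difference Cryab minus Hspb2 was 7.24 ± 0.44 (SD, n = 3) with EV, 7.44 ± 0.33 with p16 and 7.91 ± 0.14 with p21.

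**Figure D1:**
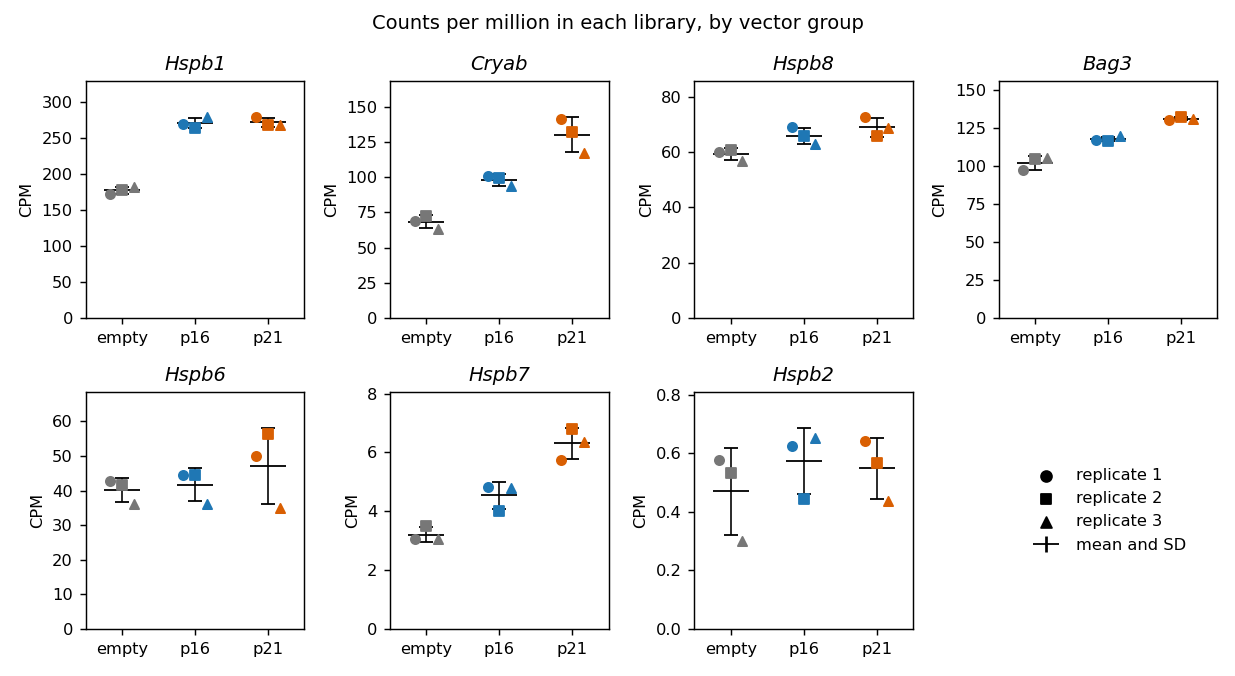
Level of each of the 7 genes in CPM (vertical axis, from 0) in the EV, p16 and p21 libraries, with 1 point per library, shaped by replicate number, and bars for the mean and SD of 3 libraries. Hspb1 reaches the same level with both inhibitors, Cryab, Hspb7 and Bag3 form steps from EV over p16 to p21, and the replicate 3 libraries of Hspb6 lie at 35.0 to 36.2 CPM in all groups.

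The other 4 members of the family in mouse were in the table but near the limit of detection. Hspb9, known from testis, had 5 to 20 reads a library and was the only one of the 4 with enough reads to be tested. Its log2 fold change was 0.31 ± 0.42 with p21 (edgeR adjusted p = 0.588), 0.80 ± 0.40 with p16 (adjusted p = 0.227) and -0.48 ± 0.39 in p21 against p16 (adjusted p = 0.466). Hspb3, a muscle gene and the partner of Hspb2, was at 0.127 CPM or less in every library, the lens gene Cryaa at 0.0907 CPM or less, and the sperm gene Odf1 at 0 in all 9 libraries.

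Levels of different genes were compared per length, as CPM per kilobase of merged exons. In all 3 groups the order was Hspb1, Cryab, Bag3, Hspb8, Hspb6, Hspb7 and Hspb2, and the 3 libraries of each gene did not overlap with those of the next. With EV, Hspb1 was at 173 ± 4.82 CPM per kb (SD, n = 3), Cryab at 46.3 ± 3.04, Bag3 at 40 ± 1.78 and Hspb8 at 30.4 ± 1.08. Hspb6 followed at 17.5 ± 1.5, and Hspb7 (1.16 ± 0.0912) and Hspb2 (0.563 ± 0.179) were far lower. Hspb1 alone made up 55.1% to 57.6% of the summed level of the 7 genes with EV, 56.2% to 58.7% with p21 and 60.4% to 62.8% with p16. The share of Cryab was 14% to 15.6% with EV, 14.7% to 15.9% with p16 and 17.8% to 20% with p21. The share of Hspb1 was higher in every p16 library than in any p21 library, and the share of Cryab was higher in every p21 library than in any other. The sum itself was 304 to 314 CPM per kb with EV, 425 to 433 with p16 and 445 to 479 with p21.

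**Figure D2:**
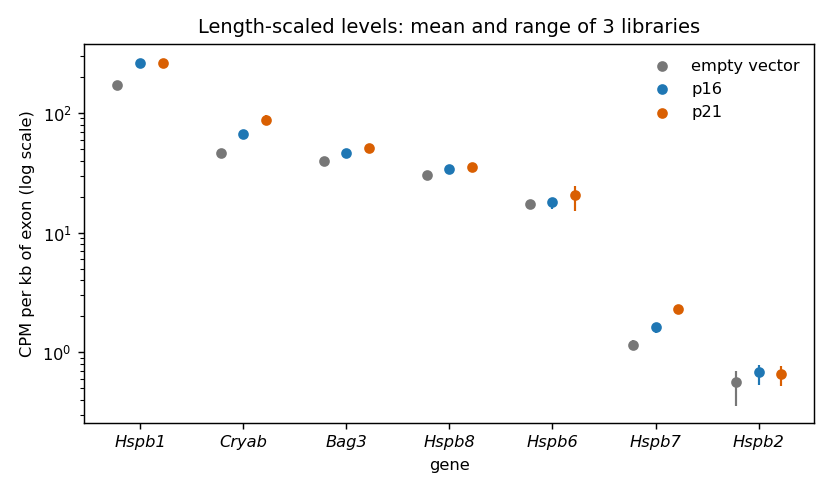
Length-scaled level of each gene in CPM per kb of merged exons (vertical axis, log scale) in the EV, p16 and p21 groups, with points for the mean and lines for the range of 3 libraries. The order of the genes is the same in the 3 groups, from Hspb1 at 173 to Hspb2 at 0.563 CPM per kb with EV.

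Against EV, 5 of the 7 members passed the edgeR threshold upwards with p21 (Hspb1, Cryab, Bag3, Hspb7 and Hspb8), where 19.8% of all tested genes passed upwards and 20.1% downwards. With p16 it was 4 of 7 (without Hspb8), where 5.8% of all genes passed upwards and 5.56% downwards. No member passed downwards, also none at an unadjusted p under 0.05 or with DESeq2. These counts rest on the comparisons that the members were chosen by and carry no weight as a test. The median log2 fold change of the 7 was 0.36 with p21 and 0.26 with p16, beside 0.001 and 0.002 over all tested genes. With library totals in place of TMM the same numbers of members passed, while the share of upward calls among all calls fell from 49.6% to 36.8% with p21, from 51.1% to 33.3% with p16 and from 47.1% to 37% in p21 against p16. The replicate numbers pair the libraries across groups, and with them as a block Hspb6 passed too with p21 (log2 fold change 0.21) and Hspb8 with p16 (0.15). The p16 count fell to 3 of 7 in replicates 1 and 2 alone, since Hspb7 (0.43) no longer passed, nor did it without EV replicate 1 or 3 or p16 replicate 1 or 3.

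The direct comparison of p21 with p16 asks whether the 2 inhibitors left these genes at different levels. Cryab, Hspb7 and Bag3 were higher with p21, and Hspb1, Hspb8, Hspb6 and Hspb2 did not pass. Thus 3 of 7 passed upwards and 0 downwards, where 6.15% of all tested genes passed upwards and 6.91% downwards. Cryab was 1.33-fold higher with p21 than with p16 (log2 fold change 0.41 ± 0.067, edgeR adjusted p = 0.00188), and higher in each of the 3 pairs of libraries with the same replicate number, by 0.48, 0.41 and 0.32. Its adjusted p stayed at or under 0.0109 in all 18 alternatives run, including replicates 1 and 2 alone. Hspb7 was 1.39-fold higher (0.47 ± 0.11, edgeR adjusted p = 0.0184), by 0.25, 0.75 and 0.41 in the pairs. This call was lost without p21 replicate 2 (adjusted p = 0.0583) or p16 replicate 2 (adjusted p = 0.0802). Bag3 was 1.11-fold higher (0.155 ± 0.038, edgeR adjusted p = 0.019), by 0.15, 0.18 and 0.13 in the pairs, and lost its call without p21 replicate 1 or p16 replicate 1 or 2 (highest adjusted p = 0.0768).

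Hspb1 gave a p21 to p16 ratio of 1.0 with a 95% interval of 0.954 to 1.06 (edgeR adjusted p = 0.953), so a difference of the size found for Cryab lies outside its interval. The pairs gave 0.05, 0.02 and -0.05. For Hspb8 the ratio was 1.05 with an interval of 0.97 to 1.13 (adjusted p = 0.439). The interval was wider for Hspb6, 0.913 to 1.39 (adjusted p = 0.473), and for Hspb2, 0.596 to 1.56 (adjusted p = 0.945), and both include the Cryab ratio. Hspb6 passed in replicates 1 and 2 alone (log2 fold change 0.25, adjusted p = 0.0109) and without p21 replicate 3 (0.35, adjusted p = 0.0383), so its outcome depends on the library with the lowest Hspb6 level.

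**Figure D3:**
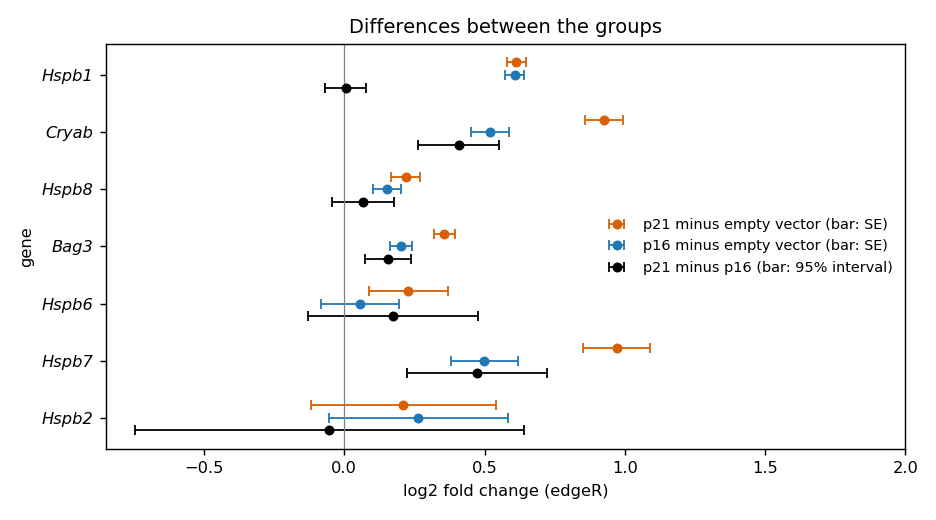
Log2 fold changes from edgeR (horizontal axis) for each gene, with p21 minus EV and p16 minus EV shown with their SE and p21 minus p16 with its 95% interval. The p21 minus p16 interval of Hspb1 lies around 0 and those of Cryab, Hspb7 and Bag3 lie above 0.

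The genes with the most similar pattern over the 9 libraries were sought among 11279 others with a mean log2 CPM of at least 1. The points share group, replicate number and scaling, and the group differences dominate the correlation, so these are descriptions only. Nearest to Hspb1 were the muscle splicing factor gene Rbm24 (Pearson r = 0.984, n = 9 libraries), the aminoacylase gene Acy3 (0.979), the thrombospondin gene Thbs1 (0.977), the phospholipase gene Pla1a (0.971) and the autophagy receptor gene Sqstm1 (0.971). Their log2 differences of p21 minus p16 ran from -0.02 for Thbs1 to 0.2 for Pla1a. Nearest to Cryab were Papss2, which makes the sulfate donor for proteoglycans (r = 0.995), the collagen chaperone gene Fkbp10 (0.994), the desmin gene Des (0.994), Olfm2 (0.993) and the lipase gene Mgll (0.993). Nearest to Bag3 were Nudt18 (0.993), Rab43, Gadd45g and Angpt4 (each 0.991) and Klc1 (0.988). Among the members, Bag3 was closest to Hspb7 (0.965) and Cryab to Bag3 (0.942), while Hspb1 reached 0.894 with Bag3 and 0.874 with Cryab.

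HSF1 is the main activator of stress-inducible chaperones. A list of 21 genes held HSF1, chaperones and co-chaperones, not all of them stress-inducible. Of these, 1 rose and 7 fell with p21 (median log2 fold change -0.06), and 4 rose and 1 fell with p16 (median 0.02). In p21 against p16, 1 was higher and 8 lower. Over all tested genes 19.8% rose and 20.1% fell with p21, and 5.8% rose and 5.56% fell with p16. In p21 against p16, 6.15% of them were higher and 6.91% lower. The counts of this and the next lists are set against these shares. The lists were chosen with earlier results of these data known, so their counts are descriptions and carry no weight as a test. With library totals the counts of the 21 listed genes were 1 and 11 with p21, and 3 and 3 with p16, where the median turned to -0.01. The transcript of HSF1 itself was at 49.2 CPM with EV, 50.3 with p21 and 49.5 with p16 on average and passed in neither comparison with EV (edgeR adjusted p = 0.754 and 0.958), and it was named after its values were seen. Hspa1a, the stress-inducible HSP70, rose from 6.45 to 35.7 CPM with p16 and was at 5.93 CPM with p21, and the difference between the inhibitors was -2.59 ± 0.13 (edgeR adjusted p = 4.87e-07). Its near-identical neighbour Hspa1b was at 38.7, 87.1 and 44.4 CPM with EV, p16 and p21 (-0.97 ± 0.12 in p21 against p16, adjusted p = 2.49e-04), and reads can be split between both.

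Other chaperones of that list moved by less. Hsph1, an exchange factor of HSP70, fell with p21 (-0.22 ± 0.038, edgeR adjusted p = 6.79e-04) and rose with p16 (0.16 ± 0.038, adjusted p = 0.0193, lost without EV replicate 2 or 3 or p16 replicate 1). Fkbp4, a co-chaperone of HSP90, fell with both, by 0.43 ± 0.030 with p21 (adjusted p = 5.11e-07) and by 0.20 ± 0.030 with p16 (adjusted p = 0.00181). Hsp90ab1, the constitutive HSP90, fell by 0.20 ± 0.031 with p21 (adjusted p = 2.18e-04). Dnajb4, a J-domain co-chaperone, rose with p21 (0.37 ± 0.039, adjusted p = 1.44e-05). It rose less with p16, by a small margin (0.14 ± 0.039, adjusted p = 0.0418). In p21 against p16 it was higher (0.235 ± 0.039, adjusted p = 0.00211).

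Among the 5 other BAG genes, Bag2, an inhibitor of the ligase CHIP, rose from 103 CPM with EV to 116 with p16 (log2 fold change 0.18 ± 0.039, edgeR adjusted p = 0.0148) and 131 with p21 (0.35 ± 0.039, adjusted p = 2.19e-05). These values lie close to those of Bag3. The p16 call of Bag2 was lost without EV replicate 2 or p16 replicate 1 or 2. Bag5 fell by 0.18 ± 0.045 with p21 (adjusted p = 0.00786), and Bag1, at 0.11 ± 0.039, passed with p21 by a small margin (adjusted p = 0.0476) that 12 of 18 alternatives did not keep. In all 2 rose and 1 fell with p21, 1 rose and 0 fell with p16 (edgeR, 0 also at an unadjusted p under 0.05 and with DESeq2), and 1 was higher and 1 lower in p21 against p16. The lower one was Bag5 (edgeR adjusted p = 0.0441), a call lost in 14 of 18 alternatives, among them DESeq2 (adjusted p = 0.0568), limma-voom (0.0577) and replicates 1 and 2 alone (0.0719). The higher one was Bag2, lost without p21 replicate 1 (adjusted p = 0.0592). With library totals 1 rose and 2 fell with p21.

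Of the 14 listed partners of BAG3 in chaperone-assisted autophagy, 9 rose and 0 fell with p21 (median log2 fold change 0.23, beside 19.8% and 20.1% of all genes). With p16, 6 rose, 0 fell and 8 did not pass (median 0.13, beside 5.8% and 5.56% of all genes). In p21 against p16, 5 were higher and 0 lower. None fell with DESeq2 either, and at an unadjusted p under 0.05 only 1 fell, with p16. Sqstm1, the receptor that links ubiquitin to the autophagosome, rose from 298 CPM with EV to 388 with p21 (0.38 ± 0.034, edgeR adjusted p = 3.79e-06) and 370 with p16 (0.31 ± 0.034, adjusted p = 3.49e-04). Map1lc3b, an autophagosome membrane protein, rose by 0.49 ± 0.041 with p21 (adjusted p = 2.19e-06) and 0.24 ± 0.041 with p16 (adjusted p = 0.00384). Synpo2, the actin-bound partner of BAG3, rose by 0.66 ± 0.063 with p21 (adjusted p = 6.28e-06) and 0.42 ± 0.064 with p16 (adjusted p = 0.00182). Wdr45, an autophagy gene, rose by 0.52 ± 0.058 with p21 (adjusted p = 2.27e-05) and 0.31 ± 0.058 with p16 (adjusted p = 0.00532). Ywhag, an adaptor protein gene, rose by 0.21 ± 0.029 with p21 (adjusted p = 0.00011) and 0.18 ± 0.029 with p16 (adjusted p = 0.00297). Filamin C (Flnc), the best known client of the route, was higher with p21 than with p16 (0.24 ± 0.047, adjusted p = 0.00564). Stub1, which encodes CHIP, was at 43.5, 44 and 41.4 CPM with EV, p16 and p21, did not pass, and was named after its values were seen.

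Of the 12 filament genes listed as clients, 7 rose and 2 fell with p21 (median log2 fold change 0.15, beside 19.8% and 20.1% of all genes), so the number that fell is near the share over all genes. With p16, 1 rose and 0 fell (median 0.05), while 5 were higher and 1 lower at an unadjusted p under 0.05, 2 rose and 0 fell with DESeq2, and 1 rose and 1 fell with library totals. In p21 against p16, 3 were higher and 1 lower, and among the 3 the keratin gene Krt18 (edgeR adjusted p = 0.0393) lost its call in 11 of 18 alternatives, including replicates 1 and 2 alone (adjusted p = 0.134). With library totals 4 rose with p21. Des, the intermediate filament that alphaB-crystallin protects in muscle, stood at 87.4 CPM with EV, 145 with p16 and 224 with p21. It rose by 1.36 ± 0.093 with p21 (edgeR adjusted p = 4.91e-07) and 0.73 ± 0.092 with p16 (adjusted p = 6.93e-04), and differed between the inhibitors by 0.62 ± 0.091 (adjusted p = 8.92e-04). The crosslinker gene Actn1 rose with p21 (0.19 ± 0.034, adjusted p = 8.70e-04), and the tubulin gene Tubb5 fell by 0.19 ± 0.030 (adjusted p = 3.38e-04). Among 8 kinases that phosphorylate small heat shock proteins or act upstream, 3 rose and 3 fell with p21 (beside 19.8% and 20.1% of all genes), 0 passed with p16 (edgeR, with 3 at an unadjusted p under 0.05 and 0 with DESeq2), and 2 were higher and 0 lower in p21 against p16 (1 lower at an unadjusted p under 0.05, and 0 with DESeq2). Those 2, Mapk14 and Mapkapk3, lost that call in 3 and 5 of 18 alternatives. Mapk14, which encodes p38, rose by 0.24 ± 0.037 with p21 (adjusted p = 2.85e-04) and Mapkapk3 by 0.36 ± 0.065 (adjusted p = 8.09e-04). Mapkapk2, which encodes MK2, fell by 0.15 ± 0.035 (adjusted p = 0.00462) and the kinase gene Prkd1 by 0.23 ± 0.057 (adjusted p = 0.00614).

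**Figure D4:**
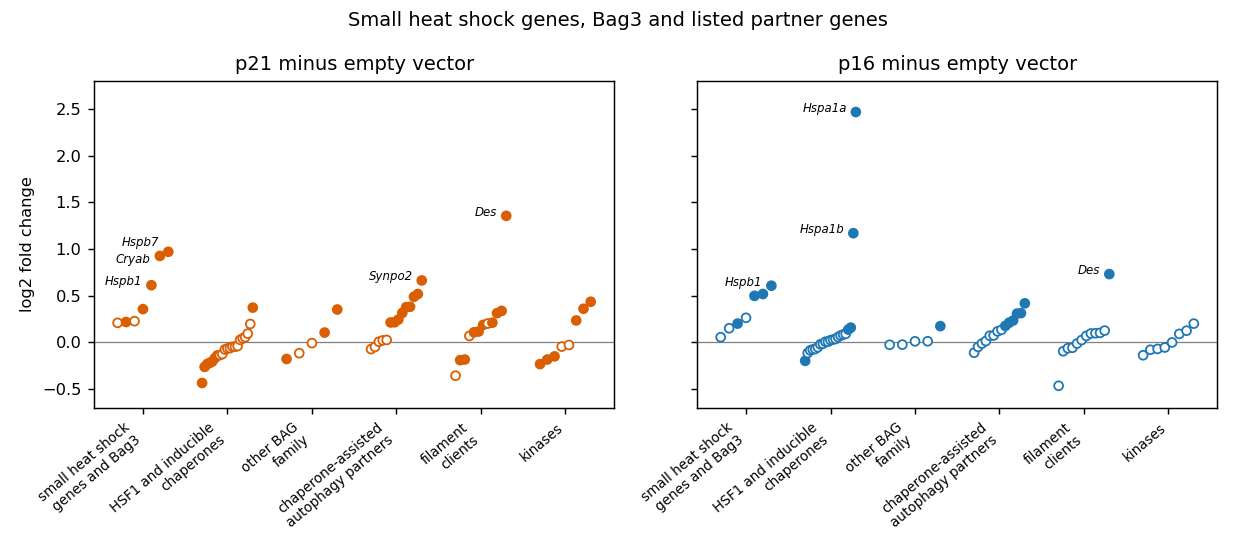
Log2 fold changes against EV (vertical axis) with p21 (left) and p16 (right) for the 7 genes and 5 lists of partner genes, filled where the edgeR adjusted p was under 0.05. The small heat shock genes all have estimates above 0 with both inhibitors, while Hspa1a, at 2.47 with p16, is the farthest from 0 of the genes drawn.

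Markers of smooth muscle moved in the same libraries. The summed level of 10 smooth muscle markers was 10853 to 11182 CPM with EV, 12038 to 12431 with p16 and 14342 to 14830 with p21, and 8 of the 10 rose with p21, 7 with p16 and 7 in p21 against p16, with 0 lower also at an unadjusted p under 0.05 and with DESeq2. Des is on that list too. Their part in the differences of the small heat shock genes was not tested. Of 15 markers of skeletal and cardiac muscle, only 5 had enough reads to be tested, and the summed level of the list was 131 to 147 CPM with EV, 191 to 208 with p16 and 371 to 428 with p21. Acta1, the skeletal actin gene, accounted for most of this, at 132, 191 and 394 CPM on average. Of the 5, only Acta1 and Chrna1 rose with p21 and with p16, and only Acta1 was higher in p21 against p16. Actc1, Tnnt2 and Tnnt3 passed in no comparison. The creatine kinase gene Ckm was listed at 0 in all 9 libraries, and the myogenic factor gene Myog was at 0.0427 CPM or less. Summed markers of leukocytes were at 25.9 to 39.8 CPM with EV, 32.3 to 57.2 with p16 and 41.1 to 56.2 with p21, with 6 of 11 tested markers higher with p21 (4 with library totals). With p16 0 passed with edgeR, 3 were higher at an unadjusted p under 0.05 and 2 with DESeq2. The part of these cells was not tested either.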

How the data were processed

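The deposited table holds raw read counts per gene symbol for 9 libraries, with no further normalization apparent in the values. Per the submitters' processing notes the reads were mapped on mm10 by TopHat2 (2.0.14) using Bowtie2 (2.2.6), and featureCounts (1.4.6) made the counts. The gene annotation and strand setting are not given in the sources used here. Members and gene lists were chosen with earlier results of these data known.

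Genes were kept by filterByExpr (minimum count 10, minimum total 15), scaled by TMM and fitted by group over all 9 libraries with the quasi-likelihood test of edgeR 4.0.16 in R 4.3.3, with 6 residual degrees of freedom. P-values were two-sided and adjusted by Benjamini-Hochberg over all 14223 genes, with a threshold of 0.05. Each standard error was derived from the estimate and its F statistic, and 95% intervals use the test's total degrees of freedom. The fit was tested on simulated data. Log2 CPM for correlations and pairs used a prior count of 2. Named genes were the 7 members, Cdkn1a, Cdkn2a, the 4 other family genes, the 4 lowest adjusted p among called genes in every list and comparison, and the 5 genes most similar to each of Hspb1, Cryab and Bag3. Hsf1, Stub1, Xist and single cell type markers lie outside this rule. Some genes that the rule names are not reported here. Of 24062 symbols, 22750 matched GENCODE M21, the source of positions and lengths.

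What a replicate number stands for is not given in the sources used here. Deviations from the group means had r = 0.126 to 0.361 across genes between same-numbered libraries of different groups, against -0.246 to 0.106 for other pairs, so the numbers pair the libraries. The variance between libraries of a group was 5.3 to 17.1 times that of counting error (chi-squared per degree of freedom). Nothing in the labels says that they came from separate cultures. If they did not, p-values measure the spread between these samples only, which may be technical in part. It is not technical alone, since replicate 3 of every group differed from the other libraries by Xist (181 to 251 CPM against at most 6.96 CPM). Alternatives were RLE scaling, library totals, both delivered genes left out, no filter, DESeq2 1.42.0, limma-voom (limma 3.58.1), only the groups compared, the replicate block, replicates 1 and 2 alone and each library left out. Protein sequences were not used here.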

Additional observations from a re-analysis of the deposited data

How the results depend on the processing

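All 7 genes kept their direction in every alternative for p21 and p16 against the empty vector except in 3 cases, none of them a gene past the threshold. These were Hspb2 with p21 without EV replicate 3 (range over left-out libraries -0.014 to 0.381), Hspb2 with p16 in replicates 1 and 2 alone (-0.062) and Hspb6 with p16 without EV replicate 3 (range -0.014 to 0.148). In p21 against p16, Hspb1 changed sign around 0, to -0.013 with library totals only and to -0.014 without p21 replicate 1 or p16 replicate 2 (range -0.014 to 0.026 over left-out libraries). Hspb2 went from -0.054 to 0.19 in replicates 1 and 2 alone, and to 0.087, 0.016 and 0.046 without p21 replicate 3, p16 replicate 1 and p16 replicate 3. The lowest value of Hspb2 was -0.215. The causes were not tested. The count of members past the threshold in p21 against p16 ran from 1 (without p16 replicate 2) to 4 when 1 library was left out.

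With the replicate block, 3044 genes passed with p16 against 1616 without it, and 3214 against 1858 in p21 against p16, the 1616 and 1858 included. Leaving out 1 library gave 759 to 1894 genes with p16 and 1074 to 1810 in p21 against p16. The block changed no other call of a member than the Hspb6 and Hspb8 calls given with the counts, and Hspb8 with p16 also passed with DESeq2 and in a fit of those 2 groups only. Among the other named genes no alternative changed a direction, and 6 of 198 values with p16, 12 of 360 with p21 and 49 of 306 in p21 against p16 no longer passed. The order of the members per kilobase was the same with the length of the longest transcript. The planned protein comparison was not run. For Hspb2 and Hspb9, reads in single or double digits a library limit what can be seen.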
